A study of Mus musculus with 2 samples.

Results

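Cholesterol synthesis and its control were followed through 27 genes in limb tissue of mouse embryos at day 10.5. The genes were chosen by symbol for their known roles: 20 enzymes of the route from acetyl-CoA units to sterols, 5 regulators and 2 sterol transport genes. They were found in the deposited tables by Ensembl identifier, all 27 were present, and they make up 27 of 42462 named genes and 127 of the annotated transcripts. Total RNA longer than 200 nt came from strain B6NCrl, unmodified as far as the labels say, in 1 group of 2 pooled samples with both sexes combined. Replicate 1 held limbs of 69 embryos and replicate 2 those of 51, and 10 ng of RNA with added spike-ins entered each library. With 1 group and no contrast in the labels, levels are described with their spread between the libraries, and no p-value is given. The pools hold many cell types, and fewer cells of a type cannot be told apart from less RNA per cell.

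Animal cells build cholesterol from acetyl-CoA through mevalonate and farnesyl diphosphate to squalene, fold squalene into lanosterol, and then trim, reduce and rearrange that first sterol. SREBP transcription factors, encoded by Srebf1 and Srebf2, switch the enzyme genes on; Scap escorts them out of the endoplasmic reticulum when sterol is scarce, and the Insig proteins hold Scap back when sterol is plentiful. In limb buds, cholesterol is also joined to Hedgehog proteins and acts on their receptors, and inborn errors of late sterol enzymes are known for limb and digit malformations.

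Expected counts, which are estimated reads and need not be whole, totalled 40509328 in replicate 1 and 43983028 in replicate 2. The 8 mesenchyme markers fixed for the tissue, Prrx1 and Msx1 among them, were all at 1 TPM or more, and their summed TPM was 883 and 969. Liver markers summed to 5.68 and 3.86 TPM with Alb at 0.12 and 0.04, neural tube markers to 0.28 and 0.23 TPM, and steroidogenic markers to 1.22 and 1.97 TPM with Cyp17a1 at 0 in both. Endothelial markers summed to 144 and 152 TPM.

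All 27 genes reached 1 TPM in each library, where TPM is an abundance corrected for transcript length and scaled to the same total in each library. Of 21474 protein-coding genes, 55.2% met the same condition. The median of the 27 was 52.5 TPM, the median of all expressed protein-coding genes was 21.3 TPM, and 22 of the 27 lay above the latter. Mean levels ran from 14.3 TPM for Hsd17b7 to 307 TPM for Fdps, a 21.5-fold range, and 6 genes reached 100 TPM. In replicates 1 and 2 the summed level of the set was 2087 and 2172 TPM. By role, the median was 74.6 TPM for the 8 enzymes up to farnesyl and geranylgeranyl diphosphate. It was 74.3 TPM for the 3 from farnesyl diphosphate through squalene to lanosterol and 50.6 TPM for the 9 after lanosterol. The 5 regulators had a median of 46.5 TPM and the 2 transport genes 16.9 TPM. Levels therefore covered the whole route, with the highest values among the enzymes up to farnesyl diphosphate.

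**Figure D1:**
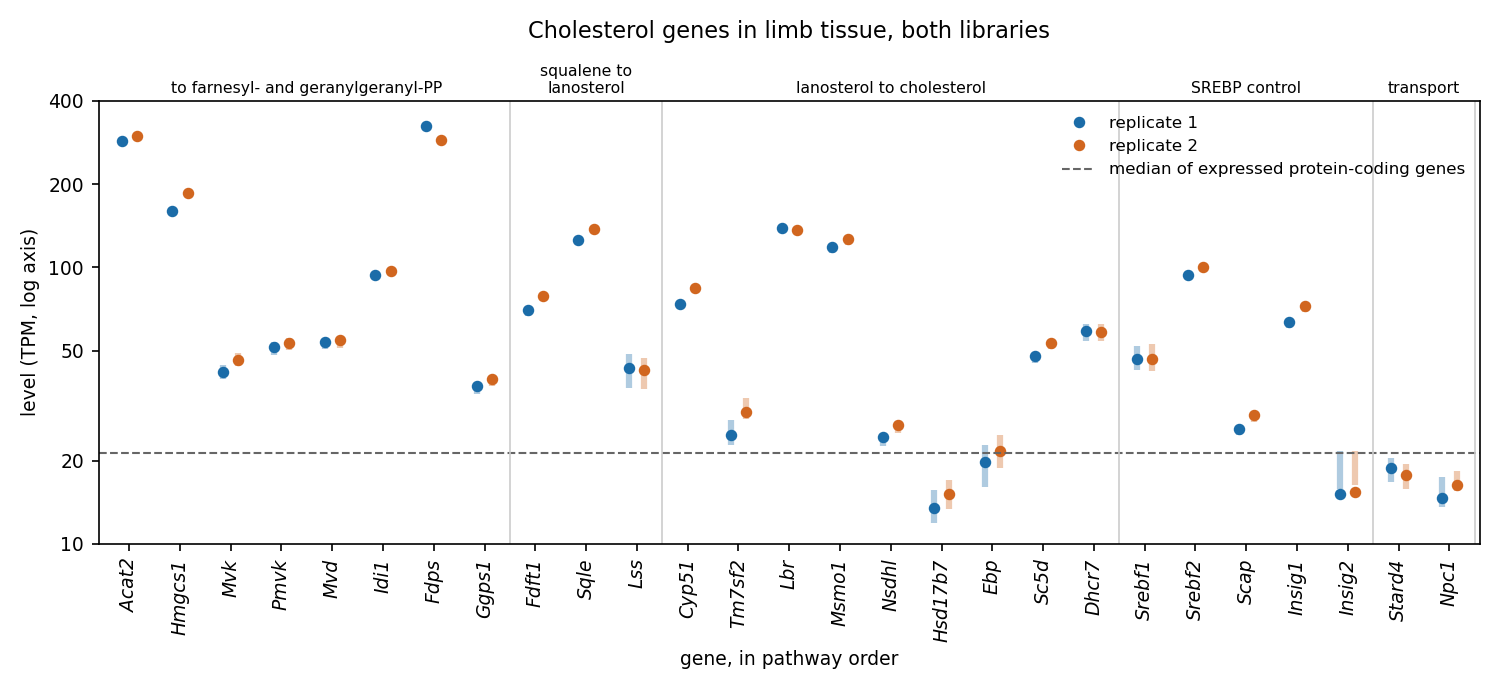
TPM of each of the 27 genes on a log axis, grouped by role, with 1 point per library, bars for the interval bounds deposited with the tables and a grey line at the median of expressed protein-coding genes. The points of the 2 libraries nearly coincide for most genes. Hsd17b7, Insig2, Stard4 and Npc1 lie below the grey line in both libraries. Ebp lies below it in replicate 1 (19.7 TPM) and just above it in replicate 2 (21.6 TPM), with its mean below.

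In order of level, neighbouring genes often could not be separated. Of 26 neighbouring pairs, 7 had deposited TPM intervals that did not overlap in either library: Acat2 above Hmgcs1, Hmgcs1 above Lbr, Msmo1 above Srebf2, Idi1 above Cyp51, Cyp51 above Fdft1, Fdft1 above Insig1 and Ggps1 above Scap. The level of these intervals is not stated in the tables. The deposited TPM itself lay above its own interval in both libraries for 4 genes and below it for 1, Insig2.

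Promoter sequence was examined because many of these genes are known in mammals as joint targets of SREBP with the CCAAT-binding factor NF-Y and Sp1. The RefSeq table (GRCm38.p6) holds 22 of the 27 genes, in 30 windows of 300 bases (250 before and 50 after the start site). Promoters of Fdps, Fdft1, Sqle, Npc1 and Stard4 were not analysed here. The letters CCAAT, on either strand, were found in at least 1 window of 20 of the 22 genes (90.9%), against 41.1% of all 27025 genes in the table. Acat2 and Scap lacked them. The letters GGGCGG, as in a GC box, were found for 20 of 22 genes, against 38.2% of all genes. The letters CACGTG, as in an E-box, were found for 5 of 22 (22.7%), against 8.09%. A sterol regulatory element core, written as TCAC, any base and CCAC, was found for 1 of 22 genes, Hmgcs1, against 1.44% of all genes. Genes with several start sites have several windows; counted by window, CCAAT was in 70.0% of the 30 and in 37.4% of all windows. The background holds every gene of the table, expressed in the limb or not, whereas all 22 genes were expressed. Shares among expressed protein-coding genes alone were not computed, so the gaps cannot be assigned to this pathway. These are matches of letters and not sites of binding.

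The 4 sequences below are the 250 bases before the start site of the genes with the most CCAAT matches among those where these bases, in the first window, overlap no annotated exon, each 5′ to 3′ on the gene's own strand. Capitals mark CCAAT, its other-strand form ATTGG and the sterol regulatory element core. Hmgcs1 lies at chr13:119690101-119690350 on the plus strand, Mvd at chr8:122443423-122443672, Lbr at chr1:181842402-181842651 and Ebp at chrX:8193513-8193762, the last 3 on the minus strand.
Hmgcs1: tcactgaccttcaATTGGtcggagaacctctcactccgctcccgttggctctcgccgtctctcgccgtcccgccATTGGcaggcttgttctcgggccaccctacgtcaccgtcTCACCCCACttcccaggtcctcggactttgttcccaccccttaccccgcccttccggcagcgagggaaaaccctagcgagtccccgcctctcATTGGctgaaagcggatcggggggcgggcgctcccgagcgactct
Mvd: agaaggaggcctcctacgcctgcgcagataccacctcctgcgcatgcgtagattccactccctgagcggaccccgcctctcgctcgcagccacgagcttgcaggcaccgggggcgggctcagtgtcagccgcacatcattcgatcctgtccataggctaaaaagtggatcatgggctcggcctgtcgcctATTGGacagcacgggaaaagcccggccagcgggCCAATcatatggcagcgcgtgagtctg
Lbr: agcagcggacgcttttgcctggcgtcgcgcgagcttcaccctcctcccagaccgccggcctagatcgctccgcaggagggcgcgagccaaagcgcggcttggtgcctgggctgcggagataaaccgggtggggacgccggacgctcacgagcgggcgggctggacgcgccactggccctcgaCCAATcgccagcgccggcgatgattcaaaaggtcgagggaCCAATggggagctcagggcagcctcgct
Ebp: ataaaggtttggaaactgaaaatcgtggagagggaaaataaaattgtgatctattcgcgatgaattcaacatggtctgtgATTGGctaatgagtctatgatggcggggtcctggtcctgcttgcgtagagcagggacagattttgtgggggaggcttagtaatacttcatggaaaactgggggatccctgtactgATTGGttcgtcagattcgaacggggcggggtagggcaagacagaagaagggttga
Hmgcs1 held 3 CCAAT matches and the only sterol core in the 22 genes scanned, TCACCCCAC, which begins 137 bases before the start site. In Mvd the 2 matches began 60 and 27 bases before the start, in Lbr 68 and 28 bases, and in Ebp 170 and 55 bases.

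The route opens with the condensation of acetyl-CoA units. Acat2, the cytosolic thiolase of that step, was at 286 TPM in replicate 1 and 299 TPM in replicate 2 (293 ± 9.18, SD, n = 2). Hmgcs1, the cytosolic HMG-CoA synthase that follows, was at 160.3 and 185.4 TPM (173 ± 17.7). Acat2 was thus 1.70-fold above Hmgcs1, with intervals apart in both libraries. Other thiolase genes were lower: the mitochondrial Acat1 was at 21.9 and 30.9 TPM, and Acat3, a near copy of Acat2, at 0.96 and 1.04 TPM.

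Mevalonate is next phosphorylated and decarboxylated to the isoprene unit. The mevalonate kinase gene Mvk was at 41.99 and 46.24 TPM, Pmvk, the second kinase, at 51.6 and 53.4 TPM, and the decarboxylase gene Mvd at 53.8 and 54.4 TPM. The 3 were close together: Mvk lay below Pmvk by a log2 ratio of -0.30 and -0.21 with intervals apart, while Mvd and Pmvk (log2 ratios 0.06 and 0.03) overlapped in both libraries. Idi1, the isomerase that interconverts the activated isoprene units, was at 93.5 and 96.6 TPM, higher than all 3. Its paralog Idi2 was at 0 in both libraries.

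Fdps, the farnesyl diphosphate synthase, had the highest mean of the set, at 325 TPM in replicate 1 and 289 TPM in replicate 2 (307 ± 25.5, SD, n = 2). In replicate 2 Acat2 was the higher of the pair, so their order was not settled. The mean of Fdps was above that of 96.0% of expressed protein-coding genes. Ggps1, which extends farnesyl to geranylgeranyl diphosphate for protein prenylation and so leaves the sterol route, was at 37.2 and 39.6 TPM. The ratio of Fdps to Ggps1 was 8.00-fold, with log2 values of 3.13 and 2.87, the widest of the 18 ratios examined. In the GENCODE M21 annotation, 1124 of the 4208 exon bases of Fdps (26.7%) are shared with Gm43738, a gene model on the same strand. The deposited level of Fdps rests on 1 transcript of 1241 nt, and the shared part of that transcript was not determined, so it may be larger. Reads of the shared bases were not told apart by sequence.

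From farnesyl diphosphate through squalene to lanosterol there are 3 enzymes. The squalene synthase gene Fdft1 was at 69.8 and 78.8 TPM, the epoxidase gene Sqle at 125 and 137 TPM, and Lss, which folds the epoxide into lanosterol, at 43.4 and 42.4 TPM. Sqle, a rate-limiting step of the pathway, was the highest of the 3 in both libraries, 1.77-fold above Fdft1 and 3.06-fold above Lss. The low value of Lss also holds transcripts without a coding sequence: its coding transcripts alone summed to 23.5 and 24.2 TPM, and the log2 ratio of Sqle to Lss was then 2.37 and 2.47 in place of 1.53 and 1.69.

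After lanosterol, 9 genes remove methyl groups and move or reduce double bonds. Cyp51, the lanosterol demethylase, was at 73.8 and 84.2 TPM. Lbr and Tm7sf2 both encode sterol C14 reductases. Lbr, which is also a receptor for lamin B in the inner nuclear membrane, was at 139 and 137 TPM, and Tm7sf2 was at 24.81 and 30.01 TPM. Lbr stood 5.05-fold above Tm7sf2, with log2 ratios of 2.48 and 2.19. Exons of Tm7sf2 share 12.1% of their bases with Vps51, a gene on the same strand at 54.2 and 66.5 TPM, so part of its small count is uncertain.

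The C4 demethylation complex was unequal. Msmo1, its oxidase, was at 118 and 126 TPM, the dehydrogenase Nsdhl at 24.4 and 26.9 TPM, and the reductase Hsd17b7 at 13.4 and 15.1 TPM. The steps descended in the same order in both libraries, 4.78-fold from Msmo1 to Nsdhl and 1.80-fold from Nsdhl to Hsd17b7. Over coding transcripts alone the first of these gaps was smaller, at a log2 ratio of 1.52 in replicate 1 in place of 2.28, and the second was wider, at 1.35 and 1.57 in place of 0.86 and 0.83.

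The last steps rearrange the B ring. Ebp, the isomerase, was at 19.7 and 21.6 TPM, Sc5d, the C5 desaturase, at 47.9 and 53.3 TPM, and Dhcr7, the 7-dehydrocholesterol reductase, at 58.9 and 58.3 TPM. Ebp was the lowest of the 3 in both libraries, at a log2 ratio to Sc5d of -1.28 and -1.30. Dhcr7 lay 1.16-fold above Sc5d over all transcripts, a ratio that turned to the other direction over coding transcripts, with log2 values of -0.06 and -0.31. Nsdhl and Ebp are the 2 genes of the set on chromosome X.

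Among the regulators, Srebf2, whose product mainly drives the cholesterol genes, was at 94.1 and 100.1 TPM (97.1 ± 4.24, SD, n = 2). Srebf1, whose products also drive fatty acid genes, was at 46.6 and 46.4 TPM (46.5 ± 0.127). Srebf2 was 2.09-fold above Srebf1 with intervals apart in both libraries, and the log2 ratios over coding transcripts were 1.61 and 1.56. Scap was at 26.1 and 29.1 TPM, below both factors that it escorts.

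Of the retention proteins, Insig1, itself a known SREBP target, was at 63.4 and 72.4 TPM, and Insig2 at 15.1 and 15.5 TPM. Insig1 stood 4.43-fold above Insig2, with log2 ratios of 2.07 and 2.23. Scap lay between them: Insig1 was 2.46-fold above Scap and Scap 1.81-fold above Insig2, with intervals apart in both libraries. The TPM of Insig2 lay below its own interval in both libraries, and its posterior mean TPM was 18.63 and 18.86. The posterior mean of Scap was 25.58 and 28.55 and that of Insig1 62.08 and 70.93. By that measure the order is the same, but the folds of Insig1 and Scap over Insig2 are smaller.

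Srebf1 makes SREBP-1a and SREBP-1c from separate start sites, 10139 bases apart on chromosome 11. SREBP-1a is known for the longer and stronger activation domain, encoded at its start. The annotated transcripts of the forms have 19 and 18 coding exons, of which 16 are the same, and they differ at the 3′ end as well as in the first exon. The first coding exons are shown because the forms are defined by them; capitals mark the start codon, both are on the minus strand of GRCm38, and they lie at chr11:60220453-60220543 (91 bases, upstream start) and chr11:60210336-60210354 (19 bases, downstream start).
SREBP-1a: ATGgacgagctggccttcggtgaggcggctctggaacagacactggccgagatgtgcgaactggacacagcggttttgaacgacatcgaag
SREBP-1c: ATGgattgcacatttgaag
The annotated coding sequences are 1134 and 1022 codons long. The transcript of the 1a form was at 22.1 TPM in replicate 1 and 24.0 TPM in replicate 2. That of the 1c form was at 6.60 and 7.14 TPM. The 1a form was 3.35-fold and 3.36-fold above the 1c form by TPM and 4.56-fold and 4.58-fold by expected counts, so the ratio was nearly the same in both pools. The division between the transcripts is the estimate deposited with the tables, and it can draw on their different 3′ ends as well as on the first exons.

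The transport genes were low in the set. Stard4, a carrier of cholesterol between membranes, was at 18.7 and 17.7 TPM, and Npc1, which moves cholesterol out of late endosomes, at 14.6 and 16.3 TPM. Their order was not resolved: the log2 ratio of Npc1 to Stard4 was -0.36 and -0.12, and the intervals overlapped.

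**Figure D2:**
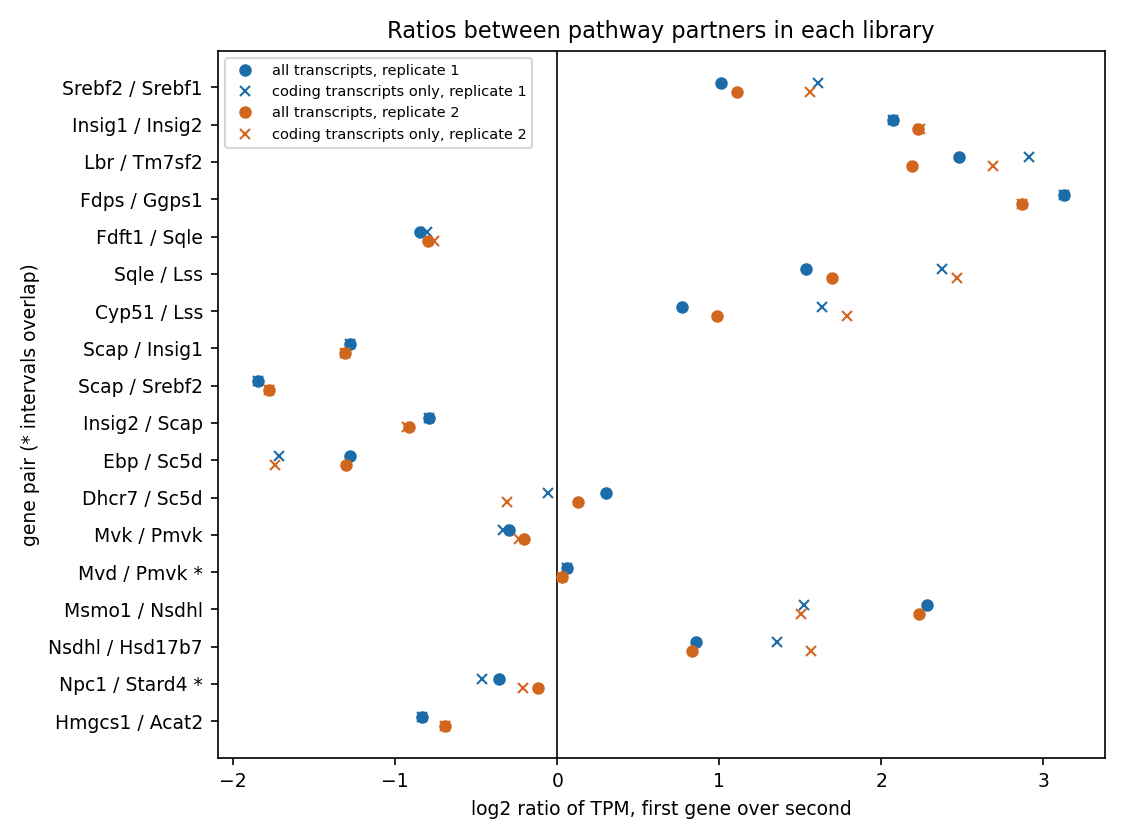
The log2 ratio of TPM between the genes of each of 18 pairs, with filled circles for all transcripts and crosses for coding transcripts only, blue for replicate 1 and orange for replicate 2. In 16 of 18 pairs the genes were apart in the same direction in both libraries, the starred pairs Mvd to Pmvk and Npc1 to Stard4 being the exceptions, and Dhcr7 to Sc5d changes side over coding transcripts.

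In transcript structure, the deposited tables hold 1 transcript for 8 of the 27 genes and more for 19. For some of the 8 the later GENCODE M21 annotation has more exon bases, as for Fdps with 4208 against a transcript of 1241 nt. A coding share of 100% for the 8 is therefore fixed by the tables. In 19 of 19 the same transcript led in both libraries, against 91.8% of expressed protein-coding genes with several transcripts. In 19 of 19 a coding transcript led, against 88.8% of those genes. It took 90% or more of the gene's TPM in both libraries for 8 of 19, against 21.1%. In 7 genes the coding transcripts took under 80% of TPM in both libraries, against 23% of expressed protein-coding genes. The 7 were Lss (54.3% and 57.0%), Msmo1, Tm7sf2, Hsd17b7, Ebp, Dhcr7 and Srebf1, 5 of them enzymes after lanosterol.

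Among those 7, Msmo1 had the largest level of RNA outside coding transcripts. Its processed transcript of 1329 nt was at 43.3 TPM in replicate 1 and 44.7 TPM in replicate 2, which was 36.6% and 35.4% of the gene, on 1421 and 1527 expected counts. In Lss and Srebf1 a large part of the share came from a short model on few reads. A retained-intron model of 425 nt took 22.1% and 16.8% of Lss on 83.5 and 64.4 counts, and a processed transcript of 367 nt took 21.1% and 15.9% of Srebf1 by TPM but 2.07% and 1.42% of its counts. By counts, coding transcripts were under 80% in both libraries for 3 genes only, Tm7sf2, Msmo1 and Ebp. In Ebp a retained-intron transcript of 1034 nt held 115 and 146 counts, 23.5% and 26.0% of the gene's TPM. A Dhcr7 transcript annotated for nonsense-mediated decay, of 721 nt, took 19.4% and 23.8% of Dhcr7. A coding transcript of Insig2, of 674 nt, had 17.9% of the gene in replicate 1 and 0 in replicate 2, on 41.6 and 0 counts. By posterior mean its shares were 16.1% and 5.02%, and its TPM intervals overlapped.

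**Figure D3:**
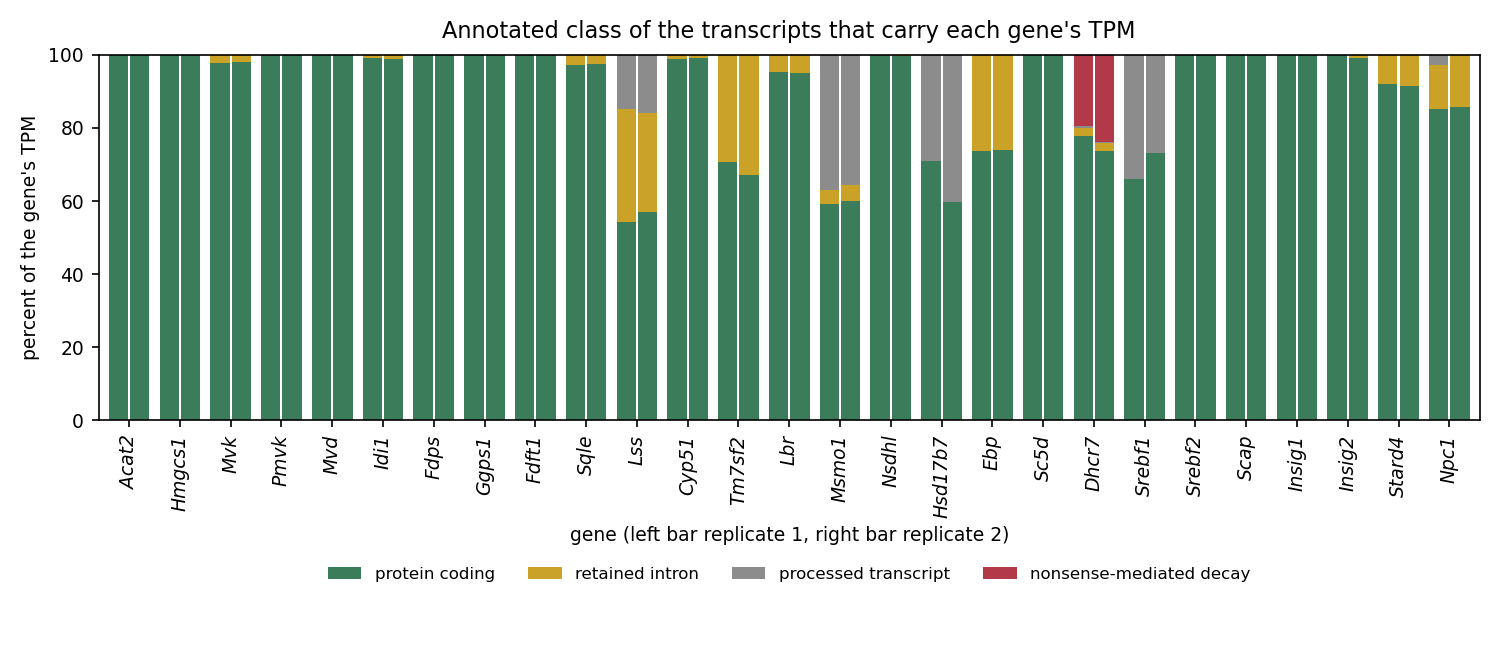
Share of each gene's TPM, in percent and for each library, in coding, retained-intron, processed and nonsense-mediated-decay transcripts. Lss, Msmo1, Tm7sf2, Hsd17b7, Ebp, Dhcr7 and Srebf1 have coding shares under 80% in both libraries, and the libraries differ most for Hsd17b7, at 70.9% and 59.8%. For Hsd17b7 this rests on a processed transcript of 810 nt with 74.0 and 120 counts, whose TPM intervals overlapped. By counts the coding share of Hsd17b7 was 93.0% and 89.6%.

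Between the pools the set differed little. The difference was taken as log2 CPM of replicate 2 minus replicate 1 after TMM scaling, with an exact binomial 95% interval that covers counting error only. No gene of the 27 was 1.5-fold or more higher in replicate 2, against 9.94% of the 16742 genes whose mean count reached 10, and 0 were 1.5-fold lower, against 4.66%. The lowest mean count in the set was 602.5, and among the 9199 genes whose mean count reached 500, 3.02% differed by 1.5-fold in either direction. The median absolute log2 difference was 0.054 for the 27 and 0.139 for those 9199 genes. The median difference was -0.05 for the set and -0.02 for those genes. Higher values in replicate 2 were found for 9 of 27, against 45.3%, but this split depends on the scaling, as given below.

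Fdps differed most, lower in replicate 2 by a log2 value of -0.31 (interval -0.35 to -0.27), and it was lower in each of the 6 scalings tried, by between -0.32 and -0.05. Dhcr7, at -0.20 (-0.27 to -0.12), and Lbr, at -0.14 (-0.18 to -0.10), were the next lowest, but both were higher in replicate 2 when scaled to the spike-ins. Counting intervals lay wholly below 0 for 8 genes (38.5% of the 9199 genes) and wholly above 0 for 3 (28.9%). The 3 were Tm7sf2 at 0.17 (0.02 to 0.31), Hmgcs1 at 0.07 (0.04 to 0.10) and Cyp51 at 0.05 (0.01 to 0.10). Along with Fdft1, Sc5d, Scap, Insig1 and Npc1, these 3 were higher in replicate 2 in every scaling tried, whereas the other 18 genes apart from Fdps changed sign with the scaling.

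Scaling moved all genes together. The median over the 16742 genes whose mean count reached 10 was 0.01 under TMM and 0.12 for the ratio of TPM + 1. It was 0.11 for the posterior mean TPM + 1 and 0.26 for scaling to spike-in counts. Relative to that median the set lay at -0.06, -0.02, -0.02 and -0.06, and 8, 13, 13 and 8 of its genes were above it. Under TMM the median of genes whose mean count reached 500, as in this set, was -0.02 and so nearer to the -0.05 of the set. The pools did differ in other markers. The 4 cartilage markers, Sox9, Col2a1, Col9a1 and Acan, summed to 166 TPM in replicate 1 and 367 TPM in replicate 2, with 4 of 4 higher by 1.5-fold or more under TMM. Acan was at 0.03 and 0.18 TPM on 5 and 37 counts, and for the ratio of TPM + 1 the number was 3 of 4. Muscle markers summed to 28.6 and 70.4 TPM, with 4 of 5 higher by that fold. Ectoderm markers summed to 238 and 202 TPM, with 3 of 7 lower by 1.5-fold or more under TMM and 0 by spike-in scaling. Krt14 went the other way, from 6.69 to 26.99 TPM, a log2 difference of 2.02 (1.81 to 2.25). Erythroid markers summed to 14886 and 12489 TPM, with 1 of 6 lower by that fold under TMM and 0 by spike-in scaling. None of these defining markers was at 0, and their part in the differences of Fdps and the others was not tested.

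**Figure D4:**
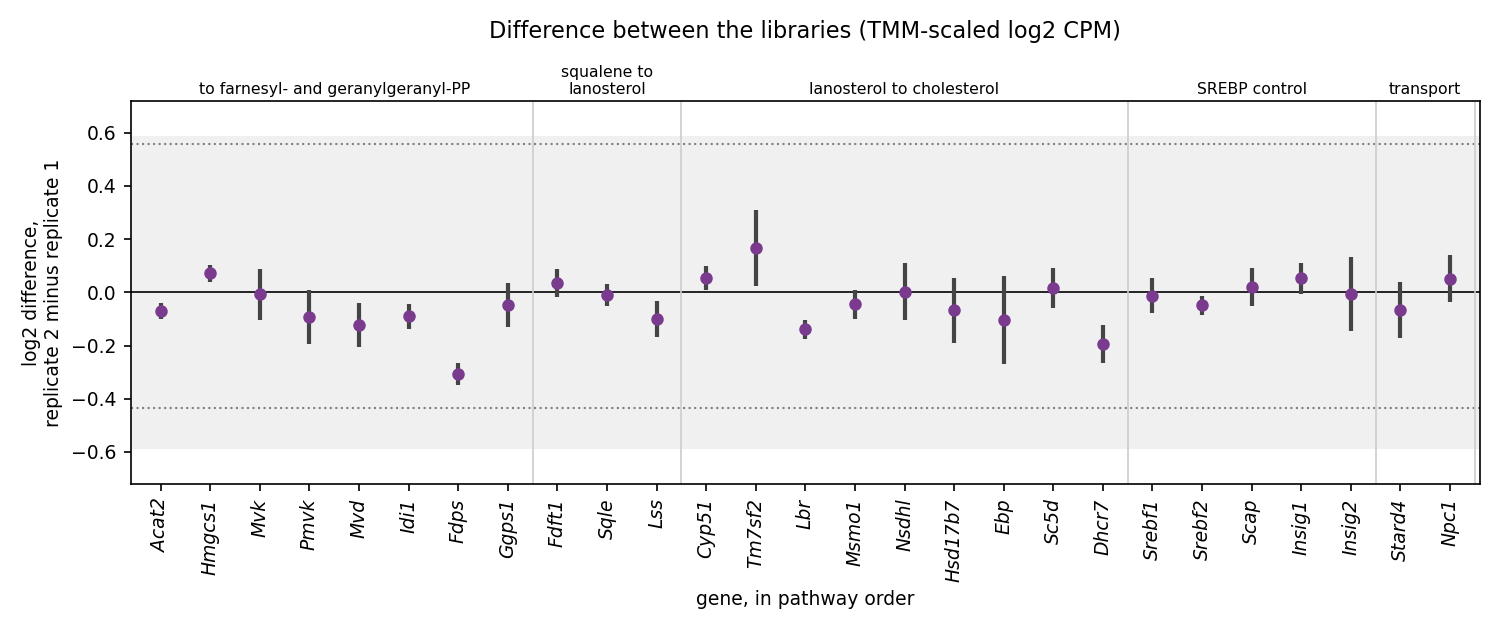
Log2 difference, replicate 2 minus replicate 1 after TMM scaling, for each of the 27 genes with exact binomial 95% counting intervals; shading marks differences under 1.5-fold, and dotted lines at -0.43 and 0.56 bound 95% of genes whose mean count reached 500. All 27 points lie between the dotted lines, with Fdps the lowest at -0.31 and Tm7sf2 the highest at 0.17.

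Other genes of sterol handling were taken as whole lists. Of 6 further genes of synthesis and its electron supply, 6 were expressed, with a median of 112 TPM. Pgrmc1, a heme-binding partner of cytochrome P450 enzymes, was at 302 and 318 TPM, Por, their reductase, at 139 and 151 TPM, and Erg28, a scaffold known from yeast, at 93.5 and 91.7 TPM. All 7 further control genes were expressed, with a median of 10.1 TPM. Mbtps1, the first protease that cleaves SREBPs in the Golgi, was at 93.2 and 103 TPM, and Mbtps2, the second, at 23.8 and 24.3 TPM. None of the 13 genes of both lists differed by 1.5-fold between the libraries under TMM.

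Of 18 genes of uptake and efflux, 16 were expressed, with a median of 18.6 TPM. Npc2, which hands cholesterol to Npc1, was at 46.4 and 51.2 TPM, and Nr1h2, an oxysterol receptor, at 60.7 and 68.9 TPM. The efflux pump Abca1 was at 1.89 and 2.68 TPM. Mylip, which marks lipoprotein receptors for breakdown, was at 8.37 and 14.4 TPM. Under TMM it was the 1 gene of this list that was 1.5-fold higher in replicate 2, at 0.64 (0.51 to 0.78). Of the 17 genes of the list whose mean count reached 10, 3 were that much higher by spike-in scaling. Among all genes of that count, 9.94% were that much higher under TMM. Lrp2 was 1.5-fold lower under TMM at -0.68, but on 29 and 20 counts and with an interval of -1.63 to 0.14.

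Genes of connected routes were expressed to different extents. The 9 genes that use isoprenoids for prenylation, dolichol, ubiquinone or tRNA were all expressed, with a median of 19.2 TPM and values from 12.2 TPM for Nus1 to 72.9 TPM for Fnta. The 9 fatty acid genes known as SREBP-1 targets had a median of 100.4 TPM and were all expressed. Scd2, a desaturase, was at 271 and 282 TPM and Acly, which supplies acetyl-CoA, at 217 and 221 TPM, while Acss2 was at 4.44 and 7.69 TPM. Of 7 genes that turn sterols into bile acids, oxysterols or steroid hormones, 2 were expressed. Cyp27a1, the sterol 27-hydroxylase, was at 21.3 and 19.2 TPM, and Cyp7a1, the first enzyme of bile acid synthesis, was at 0 in both libraries.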

How the data were processed

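Total RNA of 2 limb pools was quantified by the authors, each library on its own. Per the sample text files, reads were aligned to mm10 with GENCODE M4; aligner, quantifier, versions and use of strand: not given in the sources used here. The authors deposited expected counts, TPM and FPKM per gene and transcript, scaled over all rows with spike-ins, with interval bounds on the TPM and FPKM signal, and the percent of a gene's TPM per transcript. Other deposited columns give length in nt.

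Of 69691 rows, 43346 have Ensembl identifiers, and GENCODE M21 (GRCm38) named 42462 of them (98.0%) without version. Unnamed Ensembl rows held 0.297% and 0.293% of gene counts and stayed in library sizes. Spike-ins (3.89% and 3.45% of all counts) and numeric or other rows (0.00017% and 0.00013%) stayed out. Expected counts were rounded for edgeR 4.0.16 in R 4.3.3 (TMM, log2 CPM, prior count 2), with DESeq2 1.42.0 size factors as an alternative. Python 3.11.15, pandas 2.3.3, numpy 2.4.6, scipy 1.17.1 and matplotlib 3.10.9 did the rest. Counting intervals are exact binomial at 95% and leave out every other error, as PCR copies of 1 molecule were not told apart. With 1 library per pool there is no residual spread, so no count test was run. The calculations were tested on simulated data.

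The genes, lists, pairs and naming rule (all 27 genes and any gene of the fixed lists) were chosen with earlier results of these data known. The paralogs and Vps51, the shares by counts and the values over coding transcripts were chosen after seeing the data. Not every listed gene is named. Overlaps with other annotated exons were read from GENCODE M21: 12 of the 27 genes have some, and 5 share 10% or more of their exon bases (Fdps, Fdft1, Scap, Hmgcs1 and Tm7sf2). These shares are of all M21 exons of a gene and not of the quantified transcripts alone. The posterior SD deposited with the counts was at most 1.48% of the count.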

Additional observations from a re-analysis of the deposited data

How the results depend on the processing

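All 27 genes passed the TPM minimum under the 7 alternatives tried, minimums of 5 and 10 TPM and coding transcripts among them. The median of 52.5 TPM became 58.6 over Ensembl genes without mitochondrial genes and 50.6 over coding transcripts, and leaving out 1 library gave 51.6 to 53.4. Genes higher in replicate 2 numbered 9 under TMM, 21 for the ratio of TPM + 1, 23 for posterior mean TPM + 1 and 26 for spike-in scaling, with median log2 differences of -0.05, 0.0924, 0.0926 and 0.21. Genes with a coding share under 80% numbered 7 by TPM and 3 by counts. The log2 ratio of Dhcr7 to Sc5d was 0.21 over all transcripts and -0.19 over coding ones. The cause was not tested. No paired analysis was possible because there is 1 group. Differences between libraries have no leave-one-out form. The 2 pools, their libraries and any batch cannot be told apart, and short transcripts rest on few reads.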
